A study of Saccharomyces cerevisiae with 14 samples.

Results

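The genes described here encode the proteins of the cytosolic small (40S) ribosomal subunit of budding yeast (Saccharomyces cerevisiae). They were chosen by their reading-frame identifiers, RPS0A to RPS31 with both copies where a protein has a pair, and not by any measured value. They make up 56 of the 6670 identifiers in the count table. All 56 had the symbol of a small-subunit protein gene in the R64 gene table, and all 56 passed the filter on low counts. They encode 32 proteins, of which 24 come from a pair of copies and 8 from a single gene.

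RNA selected for poly-A tails was sequenced in 14 libraries, which fall into 7 groups of 2. The groups were cells given 5 nM beta-estradiol dissolved in ethanol for 1, 2 or 4 h, cells given ethanol as a mock induction for 1, 2 or 4 h, and untreated cells taken before induction (0 h). All 7 groups, the untreated one included, carry the genotype Z3EVpr-SWI4 and grew in synthetic complete medium with 2% glucose. In this genotype SWI4, the gene of the DNA-binding subunit of the G1/S transcription factor SBF, stands behind a promoter that an estradiol-activated artificial factor turns on. No group lacks the construct, so an effect of SWI4 cannot be told apart from another effect of estradiol or of the artificial factor. The labels do not say whether the replicates were separate cultures, and p-values then measure the spread between these samples, which may be technical.

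The small subunit reads the messenger RNA: it binds the initiation factors, scans to the start codon and holds the decoding centre, while the large subunit joins amino acids. Its proteins are grouped below by whether they sit in the head of the subunit or in its body and platform. Ribosomal protein genes are among the most strongly transcribed genes of growing yeast. In this organism the factors Rap1, Fhl1, Ifh1 and Sfp1 bind or act at most of their promoters, and the whole family is known to be turned down together when growth slows, when nutrients run short or under stress. SBF is known for cyclin, cell wall and bud growth genes, not for this family.

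The gene on which most of the called differences rest was RPS28B (YLR264W), one of a pair of genes for protein eS28 of the head. In yeast the Rps28 protein is known to bind a structure in the messenger RNA of RPS28B, downstream of its coding region, and with Edc3 to speed the decay of that messenger, so that the gene is under feedback from its own product. The coding sequences of both copies are shown because reads must be told apart by the bases at which they differ. They come from the RefSeq R64 genome and are 204 bases each, at XV:648804-649007 on the minus strand for RPS28A (YOR167C) and at XII:673131-673334 on the plus strand for RPS28B. Capitals mark the 24 bases that differ between the copies.
RPS28A: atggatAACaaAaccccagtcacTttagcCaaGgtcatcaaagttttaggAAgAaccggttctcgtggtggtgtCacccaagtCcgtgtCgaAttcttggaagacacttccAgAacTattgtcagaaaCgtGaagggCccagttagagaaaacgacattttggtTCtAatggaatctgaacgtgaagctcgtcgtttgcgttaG
RPS28B: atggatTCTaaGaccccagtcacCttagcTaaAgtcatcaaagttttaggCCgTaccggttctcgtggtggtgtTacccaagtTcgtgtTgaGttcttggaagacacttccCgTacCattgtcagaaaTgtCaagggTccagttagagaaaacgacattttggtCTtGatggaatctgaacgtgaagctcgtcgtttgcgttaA
The copies were identical at 88.2% of positions, and the longest stretch without a difference was 35 bases. Neither gene had an intron in the R64 annotation.

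Over the 24 pairs the coding identity ran from 84.3% in RPS27 to 99.2% in RPS6, with a median of 92.7%. The shortest of the longest identical stretches of a pair was 23 bases, in RPS27. No source used here says how reads that match both copies were placed, so the split of counts within the most alike pairs, RPS6 and RPS4 among them, is the least certain. An intron was annotated in 36 of the 56 genes and none in 20. A gene lay within an intron of 1 member, SNR44 in RPS22B.

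Upstream sequence was searched in the 500 bases before each start codon, on both strands, for a core of the Rap1 motif (ACCCNNACA) and for the Swi4 cell-cycle box (CACGAAA). No member held both, so no matches overlapped. The Rap1 core was present before 18 of the 56 members (32.1%) and before 328 of 6019 genes in all (5.45%). The Swi4 box was present before 2 of the 56 members (3.57%), RPS18A and RPS24B, and before 429 of the 6019 genes (7.13%). Neither motif was found before RPS28A or RPS28B. A match is a stretch of letters and not a measured binding site. RPS2 and RPS13, which have no second copy, are shown as examples with 20 bases on each side, both on the plus strand of R64, with the match in capitals. These are RPS2, a protein near the entry channel for messenger RNA, at VII:277209-277257, and RPS13 at IV:579208-579256.
RPS2: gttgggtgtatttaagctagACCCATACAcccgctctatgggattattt
RPS13: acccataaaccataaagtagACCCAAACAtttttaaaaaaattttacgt
Between the end of the match and the start codon lay 379 bases in RPS2 and 221 bases in RPS13.

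Total counts ran from 3.47 M to 17.3 M a library, and a member's own count ran from 425 to 87075. SWI4 stood at 668 to 1731 CPM (counts scaled to library size) in the 6 estradiol libraries and at 12.1 to 23.0 CPM in the other 8. The TMM scaling factors, which correct library sizes for composition, were 0.708 in estradiol 2 h replicate 2 and 0.715 in ethanol 1 h replicate 1, against 0.899 to 1.23 in the other 12. In those 2 libraries the 10 most abundant genes held 23.3% and 18.4% of counts, within a range of 11.1% to 23.3% over all 14. Levels below are CPM on library sizes scaled by TMM.

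Ranked by mean level per kb of coding length over the 14 libraries, RPS31 (YLR167W), which is made as a fusion of protein eS31 to ubiquitin, stood highest at 11279 ± 2638 CPM per kb (SD, n = 14 libraries of all 7 groups). Other high levels were those of RPS20, a protein of the head, at 6446 ± 767, RPS12 of the beak of the head at 6331 ± 905, RPS2 at 5332 ± 1393 and RPS9B of the body at 5303 ± 1205 CPM per kb. RPS20 and RPS12 lie closer together than their SDs, as do RPS2 and RPS9B, and RPS31 stands above all 4 by more than its SD. The lowest were RPS9A at 403 ± 69.0, RPS14B of the platform at 407 ± 107, RPS28B at 577 ± 229 and RPS27A, the minor gene of a zinc-binding protein, at 808 ± 80.9 CPM per kb. All 4 are the weaker copy of a pair.

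RNA levels differed far more between single genes than between proteins with the copies of each pair summed. The highest gene was 28.0 times the lowest per kb, whereas the highest summed RNA level was 3.17 times the lowest. Protein itself was not measured. The 8 single-gene members ran from 4066 to 11279 CPM per kb with a median of 5780, and the 24 proteins with a pair of genes ran from 3555 (RPS14) to 8600 (RPS1) with a median of 5866. Summed levels had medians of 6127 CPM per kb for the proteins of the head and 5631 for those of the body and platform. The ranges of these classes overlap.

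Within pairs, some copies were nearly equal and others were not. The share of copy A in the counts of both copies had a median over libraries of 50.4% for RPS30, 50.7% for RPS16 and 50.8% for RPS6. The 4 most unequal pairs were RPS9, in which copy A had 7.24%, RPS14 with 88.5%, RPS28 with 86.6% and RPS22 with 83.1%. Copy A held the larger share in every library for 12 pairs and copy B for 6, and in the other 6 the larger copy changed between libraries. The range of the share over libraries had a median of 6.26 percentage points over the 24 pairs. The narrowest was that of RPS9, from 6.18% to 7.76%. The widest range was that of RPS28, 12.7 percentage points, followed by RPS29 with 11.2, RPS27 with 10.6 and RPS7 with 9.72 points.

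**Figure D1:**
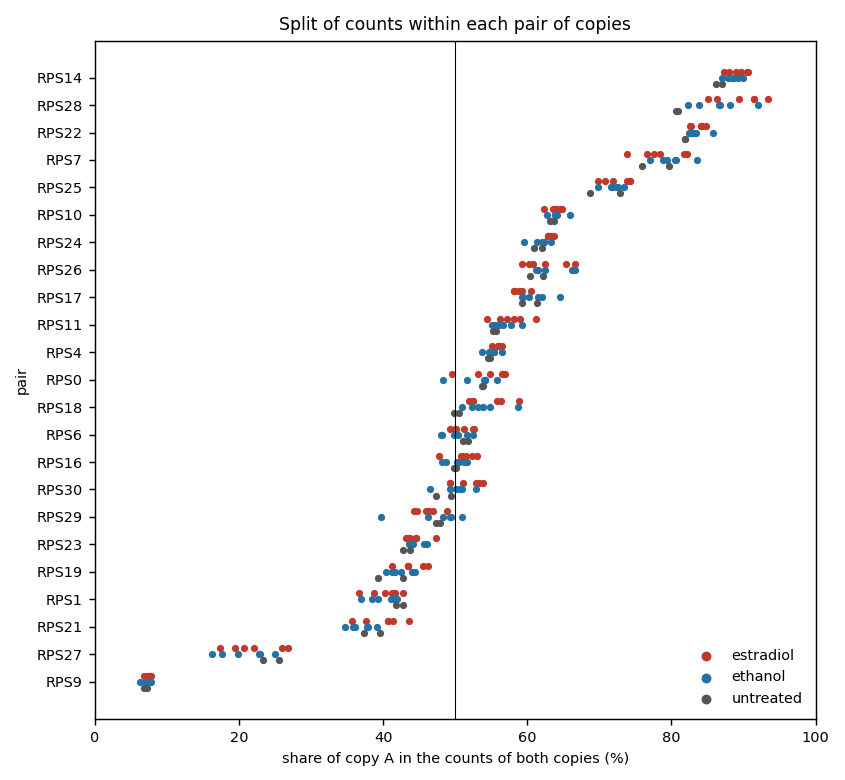
Share of copy A in the counts of both copies (horizontal axis, %) for 23 pairs, ordered by median, with each library as a point coloured by treatment and a vertical line at equal copies. RPS9 lies at 6.18% to 7.76% in every library, and RPS28 spans 80.6% to 93.4% with the untreated libraries lowest.

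The first question of the design is what estradiol did beyond ethanol. Of the 56 genes, 0 were called at 1 h, 0 at 2 h and 0 at 4 h, where called means an adjusted p under 0.05 in edgeR's quasi-likelihood test over all genes. Over all genes tested, 0.963% were called at 1 h, 1.26% at 2 h and 1.88% at 4 h. DESeq2 also called 0 members at each of the 3 times, against 2.53%, 2.37% and 3.28% of all genes. At an unadjusted p under 0.05 in edgeR the members numbered 0 at 1 h, 0 at 2 h and 1 at 4 h, against 9.72%, 6.39% and 7.84% of all genes. In bulk RNA, fewer cells of a type and less RNA per cell cannot be told apart, here and in every result below.

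At 1 h, 47 of the 56 log2 fold changes were negative and 9 positive, with a median of -0.19 beside 0.0060 for all genes. At 2 h, 9 were negative and 47 positive, with a median of 0.072 beside 0.024. At 4 h, 44 were negative and 12 positive, with a median of -0.075 beside -0.0081. The direction of the family thus differed between the times, and none of these values passed a test. The median SE of a single member was 0.30. For the median of the members, the SD of a difference between groups of 2 libraries was 0.19, from the spread within groups. The 1 h median was close to this SD, and those at 2 and 4 h lay within it. With library totals alone in place of TMM the median of all genes at 1 h moved to 0.32 and that of the members to 0.12. The sign at 1 h thus also depends on the scaling, while the member median stayed below that of all genes. At 2 h the same change of scaling turned the balance to 49 negative and 7 positive values, and the median of all genes moved to -0.073. At 4 h, with TMM, 23 values were negative without ethanol 4 h replicate 2 and 46 without replicate 1.

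The test had limited reach for single genes. The 95% interval of the fold change lay wholly within 2-fold either way for 37 members at 1 h, 53 at 2 h and 48 at 4 h. With the 3 times averaged over the 12 treated libraries, this held for all 56 members, and the fold changes ran from 0.765 to 1.18. In that averaged comparison 0 members were called by edgeR and 0 by DESeq2, with 1 at an unadjusted p under 0.05, against 6.22%, 8.72% and 15.6% of all genes. A change of the estradiol effect with time was called for 0 members by edgeR and 0 by DESeq2, with 0 at an unadjusted p under 0.05, against 0%, 0.0316% and 1.14% of all genes.

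**Figure D2:**
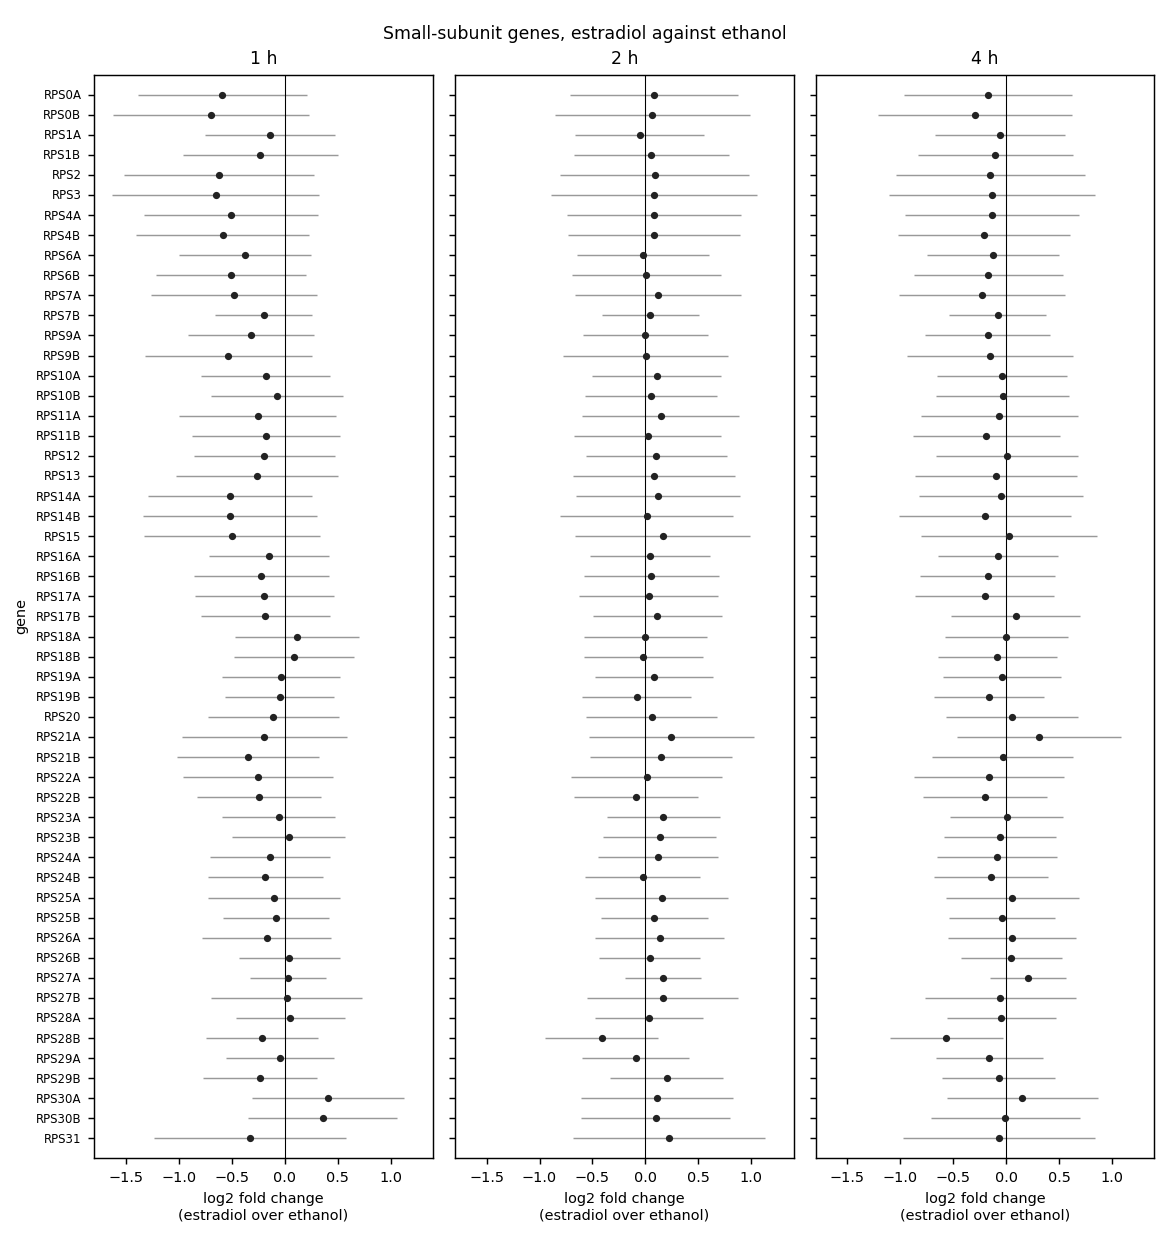
Log2 fold change of estradiol over ethanol (horizontal axis) for 53 of the 56 genes at 1, 2 and 4 h, with points for the estimate and bars for the 95% interval (n = 2 libraries a group). The 1 h panel lies mostly left of 0, the 2 h panel close to 0, and RPS28B is the lowest gene at 2 and 4 h.

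Among the body and platform genes, the lowest at 1 h were RPS0B (YLR048W), a copy of the gene for uS2, at -0.70 (SE 0.42) and RPS2 (YGL123W) at -0.62 (SE 0.41). RPS3 (YNL178W), a head protein at the entry channel, stood at -0.65. RPS2 had 2730 and 4116 CPM in estradiol 1 h replicates 1 and 2, against 6787 and 3743 CPM in ethanol 1 h replicates 1 and 2. For RPS2, ethanol 1 h replicate 1 was the highest of all 14 libraries and estradiol 1 h replicate 1 the lowest, and the groups overlap. RPS30A (YLR287C-A) and RPS30B (YOR182C), the genes of the small body protein eS30, were the highest at 1 h, at 0.41 (SE 0.33) and 0.36 (SE 0.32). RPS30A had 739 and 878 CPM with estradiol, against 375 and 841 CPM with ethanol. Here the same ethanol library is the low one. RPS18A, a head gene, came next at 0.12, with 1451 and 1863 CPM with estradiol against 1296 and 1763 CPM with ethanol.

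Within the ethanol 1 h group, replicate 1 lay above replicate 2 for 44 of the 56 genes, by log2 differences from -1.16 to 0.98 with a median of 0.19. Across the 56 genes this difference had a Pearson r of 0.65 with coding length and 0.42 with GC content, given as a description since the genes share both libraries. The part of length or composition in the 1 h comparison was not tested. In the estradiol 2 h group, replicate 2 lay above replicate 1 for 55 of the 56 genes, with a median of 0.62. Without replicate 2 the 2 h median was -0.31, and without replicate 1 it was 0.35, so its sign rests on which library is kept. The 1 h median was 0.055 without estradiol 1 h replicate 1 and -0.46 without replicate 2. Dropping ethanol 1 h replicate 1 gave -0.095, with 51 of the 56 values negative, and dropping replicate 2 of that group gave -0.24.

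At 2 h the highest values were 0.24 for RPS21A (YKR057W), the gene of eS21 beside uS2 (SE 0.36), 0.22 for RPS31 and 0.20 for RPS29B, a zinc-binding head protein. The lowest after RPS28B were RPS22B of the body and RPS29A, both at -0.09. At 4 h the highest were RPS21A at 0.31 (SE 0.35), RPS27A at 0.20 (SE 0.16) and RPS30A at 0.15. RPS27A had 184 and 195 CPM with estradiol, against 164 and 165 CPM with ethanol, with no overlap. RPS0B stood at -0.30 and RPS7A, of the body, at -0.23.

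Groups that do not overlap were few. The values of the estradiol and ethanol libraries were fully apart for 2 members at 1 h (RPS7B and RPS15, lower), 2 at 2 h (RPS27A higher, RPS28B lower) and 15 at 4 h (2 higher, 13 lower). Over all genes the shares were 31%, 23.9% and 37%. At each time the members fell short of the share of all genes.

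RPS28B was the member nearest to a call. It had 107 and 164 CPM with estradiol at 1 h, against 161 and 154 CPM with ethanol. At 2 h it had 86.1 and 82.2 CPM with estradiol, against 114 and 110 CPM with ethanol. At 4 h it had 64.1 and 52.1 CPM with estradiol, against 104 and 67.9 CPM with ethanol. The groups overlap at 1 h and are apart at 2 and 4 h. The log2 fold changes were -0.22, -0.41 and -0.56 at 1, 2 and 4 h, and the last had an unadjusted p of 0.0388 in edgeR's quasi-likelihood test and an adjusted p of 0.558. Over all single omissions that value ran from -0.84, with ethanol 4 h replicate 2 left out, to -0.24, with replicate 1 of that group left out. Averaged over the times the value was -0.39 (SE 0.14, fold 0.765), with an unadjusted p of 0.0162 and an adjusted p of 0.159, and it lay between -0.51 and -0.28 over the omissions. Without estradiol 1 h replicate 2 the averaged value was -0.51 with an adjusted p of 0.0467, the only library whose omission brought a call.

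The second question is how the genes moved from the untreated cells under either treatment. The 6 comparisons share the same 2 untreated libraries, so their values are given side by side and are not independent. With estradiol, 0 members were called at 1 h, 1 at 2 h and 1 at 4 h, against 1.53%, 3.47% and 10.7% of all genes. With ethanol, 0 were called at 1 h, 0 at 2 h and 1 at 4 h, against 0%, 0.0473% and 1.74% of all genes. In each case of a call the gene was RPS28B, and it was lower.

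DESeq2 called 0, 1 and 4 members with estradiol at 1, 2 and 4 h, against 3.58%, 7.01% and 17.9% of all genes, and 0, 0 and 4 with ethanol, against 0.347%, 0.647% and 7.67%. At an unadjusted p under 0.05 in edgeR there were 0, 1 and 5 members with estradiol, against 10.8%, 16% and 27.8% of all genes, and 0, 1 and 3 with ethanol, against 6.26%, 5.9% and 17.3%. All of these members were lower than in untreated cells. At 4 h the share of members called by edgeR was below that of all genes with estradiol and close to it with ethanol.

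RPS28B fell at 4 h of estradiol by 1.71 on the log2 scale (SE 0.25, adjusted p = 0.00130), a fold of 0.305 with a 95% interval of 0.209 to 0.444. Its level was 64.1 and 52.1 CPM with estradiol at 4 h, against 196 and 186 CPM in untreated cells. At 2 h of estradiol it fell by 1.18 (SE 0.24, adjusted p = 0.0221), and at 4 h of ethanol by 1.15 (SE 0.24, adjusted p = 0.0371). At 1 h it stood at -0.49 with estradiol and -0.28 with ethanol, and at 2 h of ethanol at -0.77, with adjusted p-values of 0.518, 0.663 and 0.646. The call at 4 h of estradiol remained when each of the 14 libraries was left out in turn, with values from -1.87 to -1.57. The call at 2 h of estradiol was lost without either estradiol 2 h library or either untreated library, with adjusted p-values from 0.0509 to 0.158. The call at 4 h of ethanol was lost without any 1 of 7 libraries, namely ethanol 2 h replicates 1 and 2, estradiol 4 h replicates 1 and 2, ethanol 4 h replicate 2 and untreated replicates 1 and 2. Without ethanol 4 h replicate 2 the value there was -0.87, with an adjusted p of 0.459.

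The other copy moved less. RPS28A had 682 and 733 CPM at 4 h of estradiol and 677 and 784 CPM at 4 h of ethanol, against 815 and 787 CPM in untreated cells. Both treated groups of RPS28A lie below the untreated one, the ethanol group narrowly. Its log2 fold changes were -0.18 with estradiol and -0.13 with ethanol, and neither was called. RPS28A held 91.4% (exact binomial 95% interval 90.9 to 91.9) and 93.4% (92.9 to 93.8) of the counts of the pair at 4 h of estradiol. At 4 h of ethanol it held 86.7% (86.0 to 87.3) and 92.0% (91.5 to 92.5), against 80.6% (79.9 to 81.3) and 80.9% (80.3 to 81.5) in untreated cells. These intervals cover counting error only. Since RPS28A is the larger copy, the pair summed stood at -0.37 (SE 0.23) for estradiol and -0.27 (SE 0.23) for ethanol at 4 h against untreated cells, with adjusted p-values of 0.334 and 0.606.

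**Figure D3:**
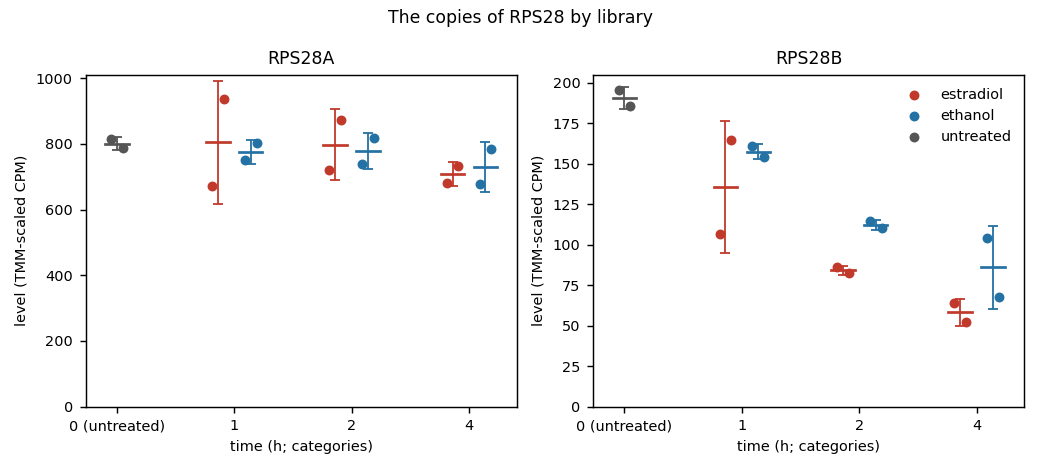
Level of RPS28A and RPS28B (vertical axis, TMM-scaled CPM, from 0) in each library by time (horizontal axis, categories), with points for libraries and bars for the mean and SD of 2 libraries. RPS28B is at 196 and 186 CPM in untreated cells and at 64.1 and 52.1 CPM at 4 h of estradiol, while RPS28A stays between 672 and 937 CPM.

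A small reading frame on the other strand, YLR264C-A, lies downstream of the RPS28B frame, with 493 bases between the frames in R64. It was looked up after the values of RPS28B were seen. It had 13.2 and 6.44 CPM at 4 h of estradiol and 25.1 and 9.81 CPM at 4 h of ethanol, against 55.3 and 49.3 CPM in untreated cells. Its log2 fold change was -2.41 (SE 0.41, adjusted p = 0.00364) with estradiol and -1.58 (SE 0.40, adjusted p = 0.0707) with ethanol at 4 h. It thus lay lower in the same libraries as RPS28B. No source used here says whether counting took the strand into account, and the part of reads shared between the transcripts of this region was not tested.

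For the rest of the family the untreated comparison gave small values, mostly negative by 4 h. With estradiol, 53 of the 56 values were negative at 1 h, 30 at 2 h and 51 at 4 h, with medians of -0.19, -0.014 and -0.28 beside 0.0060, 0.016 and -0.020 for all genes. With ethanol, 25 were negative at 1 h, 47 at 2 h and 51 at 4 h, with medians of 0.020, -0.070 and -0.20 beside 0.0015, -0.012 and -0.020 for all genes. These counts rest on few libraries. With ethanol 46 values were negative at 1 h without ethanol 1 h replicate 1, and 14 were negative at 2 h without ethanol 2 h replicate 1, where the median was 0.080. With estradiol 21 were negative at 1 h without estradiol 1 h replicate 1, and at 2 h 4 were negative without estradiol 2 h replicate 1 and 55 without replicate 2. At 4 h of estradiol 46 were negative without estradiol 4 h replicate 1 and 56 without replicate 2. At 4 h of ethanol 38 were negative without ethanol 4 h replicate 1 and 56 without replicate 2. At 4 h the medians of the head genes were -0.26 with estradiol and -0.21 with ethanol, and those of the body and platform genes -0.29 and -0.19. The single-gene members had medians of -0.14 and -0.08, and the members of pairs -0.31 and -0.22. These medians are descriptions with no test. For the median of all 56 members, the SD of a difference between groups of 2 libraries was 0.19, from the spread within groups. The 4 h median of all members was beyond this SD with estradiol (-0.28) and close to it with ethanol (-0.20).

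Treated and untreated libraries did not overlap for 9 members at 1 h, 4 at 2 h and 43 at 4 h of estradiol, against 43.5%, 42% and 67.2% of all genes in either direction. With ethanol they numbered 12, 10 and 32, against 40.6%, 44.8% and 60.2% of all genes. All 43 and all 32 members at 4 h were lower in treated cells.

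**Figure D4:**
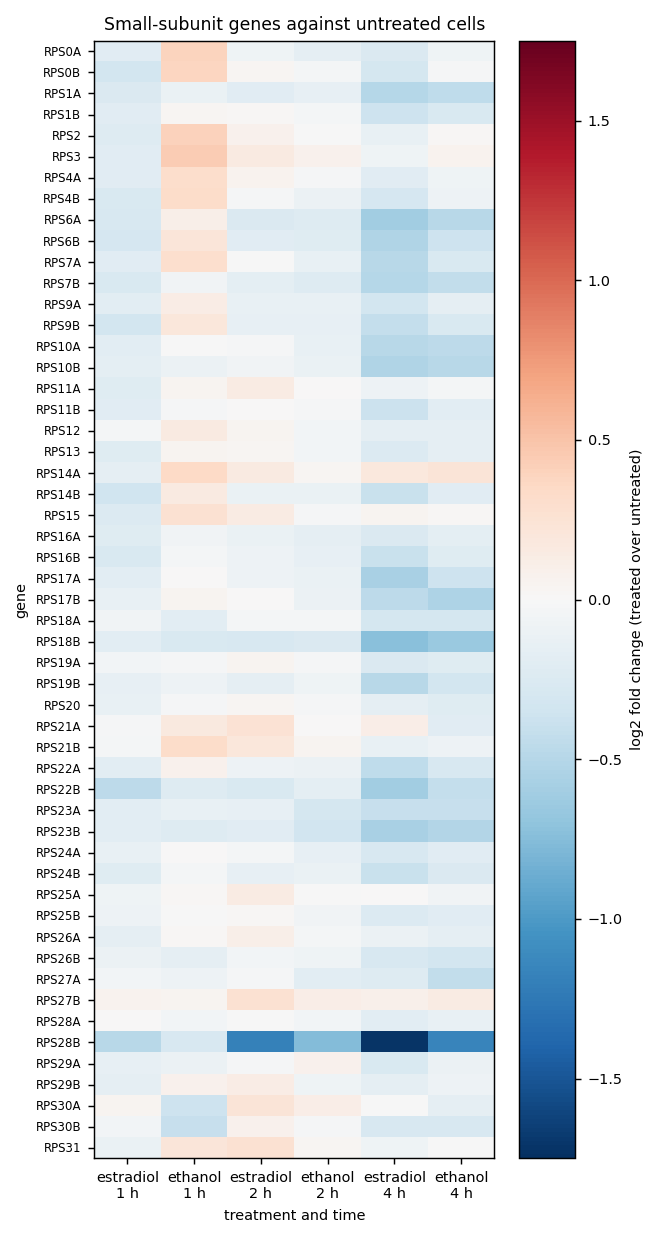
Log2 fold change of 53 of the 56 genes (rows) in the 6 treated groups over untreated cells (columns), with blue for lower and red for higher. The 4 h columns are mostly pale blue, the ethanol 1 h column is red for RPS3, RPS2 and RPS0A, and RPS28B is the darkest row, at -1.71 with estradiol and -1.15 with ethanol at 4 h.

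After RPS28B, the lowest members at 4 h of estradiol against untreated cells were RPS18B (YML026C), a head gene, RPS22B, and RPS6A, whose protein eS6 is phosphorylated downstream of TORC1. RPS18B had 1109 and 961 CPM with estradiol at 4 h and 1237 and 960 CPM with ethanol at 4 h, against 1693 and 1751 CPM in untreated cells. Neither treated group overlaps the untreated one. Its log2 fold changes were -0.73 with estradiol and -0.65 with ethanol (SE 0.26 each), with adjusted p-values of 0.0910 and 0.221 in edgeR and of 0.00354 and 0.0284 in DESeq2. RPS23B, a gene for uS12 of the decoding centre, stood at -0.56 with estradiol and -0.51 with ethanol. RPS27A stood at -0.22 and -0.43, RPS7B at -0.50 and -0.43, and RPS17B, another head gene, at -0.45 and -0.54. None of these passed in edgeR. DESeq2 called RPS23B in both comparisons, RPS27A with ethanol only and RPS7B with estradiol only, and the difference between the treatments was not itself called for any of them.

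Among the single-gene members, RPS20 had 2128 and 2325 CPM with estradiol at 4 h and 1980 and 2314 CPM with ethanol at 4 h, against 2539 and 2420 CPM in untreated cells. Both treated groups lie below the untreated one, at log2 values of -0.16 and -0.21. RPS13, the body protein uS15, had 1525 and 1881 CPM with estradiol and 1603 and 2031 CPM with ethanol at 4 h, against 2128 and 1911 CPM in untreated cells. Its estradiol libraries lie apart from the untreated ones and its ethanol libraries overlap them, with values of -0.25 with estradiol and -0.15 with ethanol, neither called. RPS12 (-0.15 with estradiol, -0.16 with ethanol), RPS15, the head protein uS19 (0.04 and 0.02), and RPS31 (-0.08 and -0.01) overlapped their untreated levels under both treatments. RPS31 had 4241 and 5214 CPM with estradiol and 4245 and 5670 CPM with ethanol, against 5419 and 4572 CPM in untreated cells.

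RPS29, RPS27 and RPS7, the pairs next in range of the copy share, did not show the course of RPS28. In RPS29 copy A held 46.8% and 44.6% of the pair at 4 h of estradiol and 48.3% and 46.2% at 4 h of ethanol, against 47.3% and 47.8% in untreated cells, and the lowest share, 39.7%, was in ethanol 1 h replicate 1. In RPS27 copy A held 22.05% and 19.5% with estradiol and 19.9% and 16.2% with ethanol at 4 h, against 23.4% and 25.6% in untreated cells, and 26.8% and 17.3% in the replicates of estradiol at 2 h. In RPS7 the share was 77.6% and 78.4% with estradiol and 78.9% and 80.5% with ethanol at 4 h, against 79.6% and 76.0% in untreated cells, and both its ends, 73.8% and 83.5%, were at 1 h. These shares thus differed as much between replicates as between groups. In RPS27 all 4 libraries of 4 h lie below both untreated ones, yet the replicates of estradiol at 2 h lie on either side of them. RPS18 came next in range. Its copy A held 56.4% and 58.8% with estradiol and 53.8% and 58.7% with ethanol at 4 h, against 49.8% and 50.4% in untreated cells. The share of RPS18B was thus lower in all 4 libraries of 4 h, and also in every library of 1 and 2 h. In RPS14, with a narrower range, copy A held 90.4% and 90.7% with estradiol and 89.3% and 89.9% with ethanol at 4 h, against 86.1% and 87.0% in untreated cells. A higher share of copy A at 4 h was thus not particular to RPS28.

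A few members lay near or above their untreated level. RPS14A (YCR031C), the main gene of the platform protein uS11, had 1151 and 1560 CPM with estradiol at 4 h and 1122 and 1687 CPM with ethanol at 4 h, against 1281 and 1113 CPM in untreated cells. Its values were 0.18 and 0.23, uncalled, and the groups overlap. RPS27B stood at 0.09 with estradiol and 0.15 with ethanol at 4 h, and RPS3 at -0.08 and 0.06. At 1 h of ethanol the highest were RPS3 at 0.45, RPS2 at 0.40 and RPS0A at 0.39, in which ethanol replicate 1 again stood apart, and the lowest RPS30B at -0.40, RPS30A at -0.36 and RPS28B. At 2 h of ethanol the highest were RPS30A and RPS27B at 0.12 and 0.11 and RPS29A at 0.07, and the lowest after RPS28B were RPS23B at -0.33 and RPS23A at -0.31.

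Taken as a share of all counts, which scales each library by its own total alone, the 56 genes held 7.53% to 10.2%. With estradiol they held 8.66% and 10.2% at 1 h, 9.05% and 8.42% at 2 h and 8.03% and 7.53% at 4 h. With ethanol they held 8.40% and 9.92% at 1 h, 9.34% and 9.27% at 2 h and 8.86% and 8.15% at 4 h. Untreated cells had 10.2% and 10.01%. At 4 h all 4 treated libraries lie below both untreated ones, and both estradiol libraries below both ethanol ones. The means were 7.78 ± 0.355% with estradiol and 8.50 ± 0.502% with ethanol at 4 h, against 10.1 ± 0.133% in untreated cells (SD, n = 2). Leaving out single libraries, the difference of the estradiol and ethanol means at 4 h lay between -1.08 and -0.37 percentage points. With 2 libraries against 2 an exact permutation test cannot fall to 0.05, so no p-value is given. A share also falls where other abundant genes take more of the counts. In estradiol 2 h replicate 2 the share lay below that of replicate 1, though 55 of the 56 genes had higher TMM-scaled levels there.

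The 81 large-subunit genes lay lower at 4 h as well, at 9.75 ± 0.0710% of counts with estradiol and 10.7 ± 0.0717% with ethanol, against 11.8 ± 0.0810% in untreated cells. The ratio of small-subunit to large-subunit counts was 0.797 ± 0.0306 with estradiol and 0.795 ± 0.0523 with ethanol at 4 h, against 0.857 ± 0.00540 in untreated cells. Of the 81 large-subunit genes 0 were called at 4 h against untreated cells under either treatment, beside 10.7% of all genes with estradiol and 1.74% with ethanol, with medians of -0.21 with estradiol and -0.16 with ethanol.

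**Figure D5:**
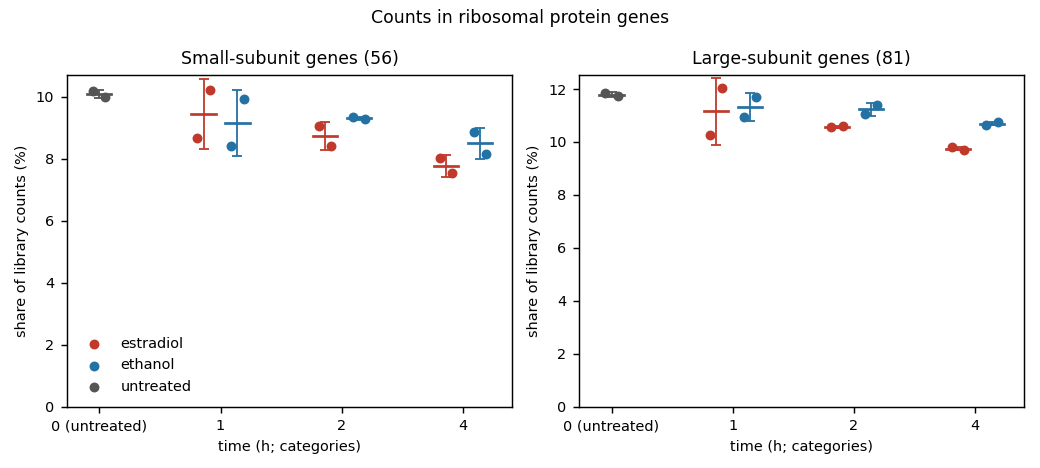
Share of a library's counts (vertical axis, %, from 0) in the 56 small-subunit and 81 large-subunit genes by time (horizontal axis, categories), with points for libraries and bars for the mean and SD of 2 libraries. Both group means are lowest at 4 h of estradiol, where the small-subunit share is 8.03% and 7.53%, and highest in untreated cells, while the highest single library is estradiol 1 h replicate 2.

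Other lists of the same pathway were counted beside the family. With estradiol at 4 h against untreated cells, 9 of 56 assembly factors of the small subunit fell and 0 rose, with a median of -0.65, beside 10.7% of all genes called in either direction in that comparison, against which the counts of these lists are to be read. The lowest was RRP5, an assembly factor of the pre-ribosome, at -1.10. Of the 4 dedicated chaperones that carry single small-subunit proteins, 3 fell. These were TSR2, the chaperone of Rps26, by 0.83, YAR1, that of Rps3, by 0.67 and TSR4, that of Rps2, by 0.63. The protein clients RPS26A, RPS26B, RPS3 and RPS2 themselves stood at -0.10, -0.27, -0.08 and -0.13, uncalled. Of 20 initiation factors that bind the small subunit, 3 fell, namely TIF4631, SUI3 and SUI2, by 0.93, 0.74 and 0.66. Of 13 regulators of ribosomal protein or ribosome biogenesis genes 2 rose, DOT6, a repressor of ribosome biogenesis genes, by 1.33 and the kinase YAK1 by 0.81. These genes were named after their values were seen. Of 31 mitochondrial small-subunit genes 0 were called, with a median of 0.40.

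With ethanol at 4 h against untreated cells 0 members of these 5 lists were called, beside 1.74% of all genes, and the medians were -0.64 for the assembly factors, -0.55 for the chaperones, -0.48 for the initiation factors, -0.08 for the regulators and 0.43 for the mitochondrial genes. Estradiol against ethanol called 0 genes of these 5 lists and 0 large-subunit genes at 1, 2 or 4 h or in the average. A difference between the treatments was thus not shown for these lists.

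Stress genes moved with time. Of the 21 tested genes of a list of 22 general stress genes under Msn2 and Msn4, 14 rose and 0 fell at 4 h of estradiol, and 10 rose and 0 fell at 4 h of ethanol, against untreated cells, beside 10.7% and 1.74% of all genes called. The summed level of the list was 2451 and 3169 CPM with estradiol at 4 h and 1977 and 2569 CPM with ethanol at 4 h, against 1033 and 929 CPM in untreated cells. The library with the lowest small-subunit share at 4 h in each treatment, replicate 2, is also the one with the higher stress level. Lower share and higher stress level also went together within ethanol 1 h and within each treatment at 2 h. Within estradiol 1 h and within untreated cells the library with the higher stress level had the higher share. The part of the stress genes in the levels of the family was not tested. In the averaged comparison of estradiol with ethanol, 4 of the 21 rose and 2 fell, beside 6.22% of all genes called, with YGP1, a secreted glycoprotein, at -2.40, HSP12, a membrane-protecting protein, at 2.40 and HSP42, a small heat shock protein, at 0.78 as those of smallest p.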

How the data were processed

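Poly-A selected RNA of 14 libraries was measured. The authors deposited whole-number read counts per reading frame for each library, with no normalization. Reads were aligned with Bowtie2 2.2.5, per the submitters' processing notes; no source used here gives the counting tool, genome build or use of strand. Of 6670 identifiers, 671 did not match the R64 gene table. The labels' protocol names an induction of 1 h, while sample labels give 1, 2 and 4 h, which were used.

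In R 4.3.3, edgeR 4.0.16 was run on the counts with TMM factors and filterByExpr (minimum count 10). A quasi-likelihood model with 7 groups was fitted to 6337 genes (7 residual degrees of freedom), and an additive model with time to 6320 genes for the averaged effect. Tests were 2-sided with Benjamini-Hochberg adjustment over all genes within a comparison. The SE is the log2 fold change over the root of F, and 95% intervals use the moderated degrees of freedom (11.5 to 11.7). The fit was tested on simulated data. DESeq2 1.42.0, RLE factors, library totals, other filters, a replicate block, only the groups compared, summed copies and omission of each library were alternatives.

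Named genes were the 3 highest and 3 lowest per comparison of estradiol with ethanol and of ethanol with untreated cells, the 6 highest and 4 lowest levels per kb, the single-gene members and the 4 most variable and 4 most unequal pairs. Of the stress list, the 3 called genes with the smallest p in the average were named. Genes of the other lists were named from estradiol at 4 h against untreated cells, after their values were seen. Some members were also named outside these rules, such as RPS6A at 4 h of estradiol against untreated cells. Members and lists were chosen with earlier results of these data known. Some members stay in every count, median and fit but are not reported here by name or plotted singly. Sequences are from RefSeq R64.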

Additional observations from a re-analysis of the deposited data

How the results depend on the processing

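Counts of called members for estradiol against ethanol stayed at 0 at 1, 2 and 4 h under every alternative run, and were 0 to 1 in the average when a library was left out. Alternatives that moved a result are given here, and the cause was not tested. With library totals alone the median of the members was 0.12 for estradiol against ethanol at 1 h, -0.21 for ethanol at 1 h against untreated cells and -0.20 for estradiol at 2 h against untreated cells. The calls were then 0 at 2 h and 3 at 4 h of estradiol and 0 at 4 h of ethanol, and RPS28B at 1 h, estradiol against ethanol, turned to 0.088 (adjusted p = 0.903). With only the groups compared in the fit, calls against untreated cells were 0 at 2 h and 13 at 4 h of estradiol. At 2 h of ethanol 1 member was then called (RPS28B, adjusted p = 0.00376 in edgeR's quasi-likelihood test). The shares of all genes called with library totals alone and in this restricted fit are not given here. These counts of members are thus no result about the family. DESeq2 called 4 at 4 h of estradiol and 4 at 4 h of ethanol, against 17.9% and 7.67% of all genes. With the copies of each pair summed, calls were 0 at 2 h and 0 at 4 h of estradiol and 0 at 4 h of ethanol.

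The libraries of lowest TMM factor, ethanol 1 h replicate 1 and estradiol 2 h replicate 2, were also left out together, a choice made after seeing the data. Medians at 2 h of estradiol were then -0.31 against ethanol and -0.38 against untreated cells. Leaving out each library in turn gave medians of -0.46 to 0.055, -0.31 to 0.35 and -0.20 to 0.019 for estradiol against ethanol at 1, 2 and 4 h, of -0.43 to 0.039, -0.38 to 0.27 and -0.36 to -0.21 for estradiol against untreated cells at 1, 2 and 4 h, and of -0.086 to 0.070, -0.24 to 0.080 and -0.32 to -0.089 for ethanol. Calls were 0 to 1 for estradiol at 2 h and for ethanol at 4 h against untreated cells. RPS28B, estradiol against ethanol at 1 h, lay between -0.56 and 0.085. The difference in the share of counts, estradiol minus ethanol, was -0.50 to 1.08 points at 1 h, -0.88 to -0.25 at 2 h and -1.08 to -0.37 at 4 h. Whether the replicate numbers pair samples across groups cannot be told from these values. Over 21 pairs of groups the replicate differences correlated at -0.69 to 0.74, with 11 above 0.1. With the replicate number as a block the median for estradiol against ethanol was -0.21 at 1 h, 0.052 at 2 h and -0.073 at 4 h, and 0 members were called in each. The restricted fit was not run for the average, which has no narrower set of groups. A fit that leaves a group with 1 library assumes that it varies like the other groups.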
